A study of Mus musculus with 19 samples.

Results

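The C-type lectin receptors described here are 10 genes (Clec4a1, Clec4a2, Clec4a3, Clec4d, Clec4e, Clec4n, Clec5a, Clec7a, Clec10a and Clec12a), chosen by symbol as myeloid members of the family, and all 10 were found among the 27299 genes of the expression table. They were measured by bulk RNA-seq of sorted retinal microglia, the resident macrophages of that tissue, in 6 samples collected at 3 days from the laser burn (CNV d3) and in 6 samples of unlasered mice (control). In this model an argon laser ruptures the pigment epithelium under the retina, and vessels then grow in from the choroid (choroidal neovascularization, CNV). For these samples 6 burns were set in each treated eye. All mice were 8 weeks old, and no agent other than the laser separates the groups in the labels. The labels name the strain C57BL/6J and a gate for CD45+CD11b+CX3CR1+Ly6C-Ly6G- cells, while the methods name mice that carry a GFP allele of Cx3cr1 and cells low for CD45. The sources do not say how many mice or eyes went into a sample, so p-values measure the spread between these samples. The comparison asks how the receptors of microglia from the central retina with the lesions differ from those of unlasered eyes dissected the same way.

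C-type lectin receptors are surface proteins with a carbohydrate-recognition type fold that bind sugars, lipids or self ligands of damaged cells. Activating members signal through an ITAM, a paired tyrosine motif, either in the partner proteins FcRγ (Fcer1g) and DAP12 (Tyrobp) or as a single copy in their own tail, which recruits the kinase SYK and, through CARD9, NF-kappaB. Inhibitory members carry an ITIM, a tyrosine motif that recruits phosphatases and dampens such signals. Macrophages, monocytes and dendritic cells carry different sets of these receptors, and all 3 can be found in an injured retina.

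All members but Clec10a lie on mouse chromosome 6 (GRCm38, Gencode M21). Clec5a stands alone at chr6:40574894-40585821. In the order Clec4a1, Clec4a3, Clec4a2, Clec4n, Clec4d and Clec4e, 6 genes share 368.0 kb at chr6:122921848-123289870, and Clec12a and Clec7a share 130.1 kb at chr6:129342691-129472779. Clec10a lies at chr11:70156197-70170834. No exon of a member overlaps an exon of another gene, so the counts, which do not use strand, are not mixed with those of a neighbour. Near-identical copies touch a few members. Of the 50-base stretches of Clec10a transcripts, 9.02% also occur elsewhere, most of them in its neighbour Mgl2, and 6.83% of those of Clec4a2 do, so the counts of both are uncertain to that extent. The annotation types Clec7a as a polymorphic pseudogene, although reads on it were among the most frequent of the family.

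Start-site regions of 8 of the members were in the RefSeq table (GRCm38.p6), which covers 250 bases before and 50 bases after each start. The letters GAGGAA, the core bound by PU.1, the ETS factor that myeloid cells depend on, occurred on either strand in 7 of these 8 members, and in 28.28% of all 32841 regions of this length. The 10-letter PU.1-IRF composite, which can overlap the core, occurred in 2 members and in 2.72% of all regions. The AP-1 letters TGANTCA were in 2 members (7.81% of all), the C/EBP letters TTGCNNAA in 2 (10.8%), and the NF-kappaB site of 10 letters in 0 (5.56%). Such matches describe letters and not binding. The windows of 26 bases below are shown because the PU.1 core is the feature most of the family shared, with the core in capitals and each read 5′ to 3′ on the strand of its gene, where TTCCTC is the core on the other strand:
Clec4a1 (chr6:122921621-122921646, plus strand): taatgcctggTTCCTCtttttccttt
Clec4a3 (chr6:122952584-122952609, plus strand): aatgccctggTTCCTCtttttcattc
Clec4d (chr6:123261857-123261882, plus strand): caccaacttcTTCCTCtgttctaaag
Clec4e (chr6:123289912-123289937, minus strand): ttgtgcaagaGAGGAAattctgactt
Clec5a (chr6:40585845-40585870, minus strand): agaagttcccTTCCTCtttttgcccc
Clec7a (chr6:129472860-129472885, minus strand): acaggatctaGAGGAAaaaagggaaa
For each of these 6 genes the core nearest to and before a start site is shown, except for Clec4a1, where the one farther out is given. The cores of Clec12a, which lie in annotated exons, are not printed. That window of Clec4a1 and the window of its neighbour Clec4a3 share an unbroken run of 17 bases around the core, the longest shared by any pair of members, and the next longest run had 12 bases. The core in this run begins 217 bases before the start of Clec4a1 and 50 bases before one of the starts of Clec4a3.

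The samples held between 10963178 and 22335233 reads on genes in control and between 23532260 and 29523018 in CNV d3, so a read was worth 1.00 to 1.99 normalized counts in control and 0.739 to 0.895 in CNV d3. Values are normalized counts, the reads of a gene divided by a factor for the depth of the sample, and at these depths 3 reads in the shallowest control sample came to 5.96. This floor covers counting error only. Microglial markers were present in all 12 samples, with a summed level of 1556760 to 1717350 in control and 875848 to 1288060 in CNV d3, and of 14 markers 2 were decreased DEG (P2ry12 and P2ry13) and 0 increased. By adjusted p alone in limma 8 of the 14 were lower and 1 (Itgam, log2 fold change 0.72) was higher. In bulk samples, fewer cells of a type and less RNA per cell cannot be told apart. Reads of the Y-linked gene Ddx3y were present in CNV d3 replicates 4, 5 and 6 (1433 to 1810 reads) and at 0 in the other 9 samples, while Xist had 3482 reads or more in those 9 and at most 1 in the 3. The share of male cells therefore differed between the groups, and each member with an adjusted p under 0.05 is also given for the 3 CNV d3 samples without Ddx3y reads.

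Of the 10 members, 3 were increased DEG at CNV d3 (Clec4a1, Clec4d and Clec10a) and 0 were decreased, where a DEG has an absolute log2 fold change (log2FC) over 1.5 and a Benjamini-Hochberg adjusted p (padj) under 0.05 in limma over all genes. Of all genes tested, 3.91% were increased and 1.07% decreased by this rule. By padj alone, without a threshold on the fold change, 4 members were higher and 1 was lower, against 8.29% and 4.57% of all genes. At an unadjusted p under 0.05, 7 were higher and 1 was lower in limma, against 16.3% and 8.9% of all genes, and edgeR, DESeq2 and limma voom also called 0 members decreased. In 1 member (Clec4a1) every CNV d3 sample lay above every control sample, as in 4.64% of all genes, and in 0 members below, against 2.83%. The log2FC, on the scale of log2(normalized counts + 1), was positive for 8 members and negative for 2, with a median of 1.76 beside 0.15 for all genes. Setting Clec10a at its lower bound could not move this median, since the bound also lies above it. The median falls between Clec12a (1.53) and Clec4a1 (2.00), and the value of Clec12a was 0.39 without control replicate 4 and 0.65 in DESeq2. With the 3 CNV d3 samples without Ddx3y reads against all control samples, 0 of the members were DEG in limma and 4 were higher and 1 lower at an unadjusted p under 0.05 (12.6% and 6.39% of all genes), while 524 genes (1.92%) were increased and 166 (0.608%) decreased.

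**Figure D1:**
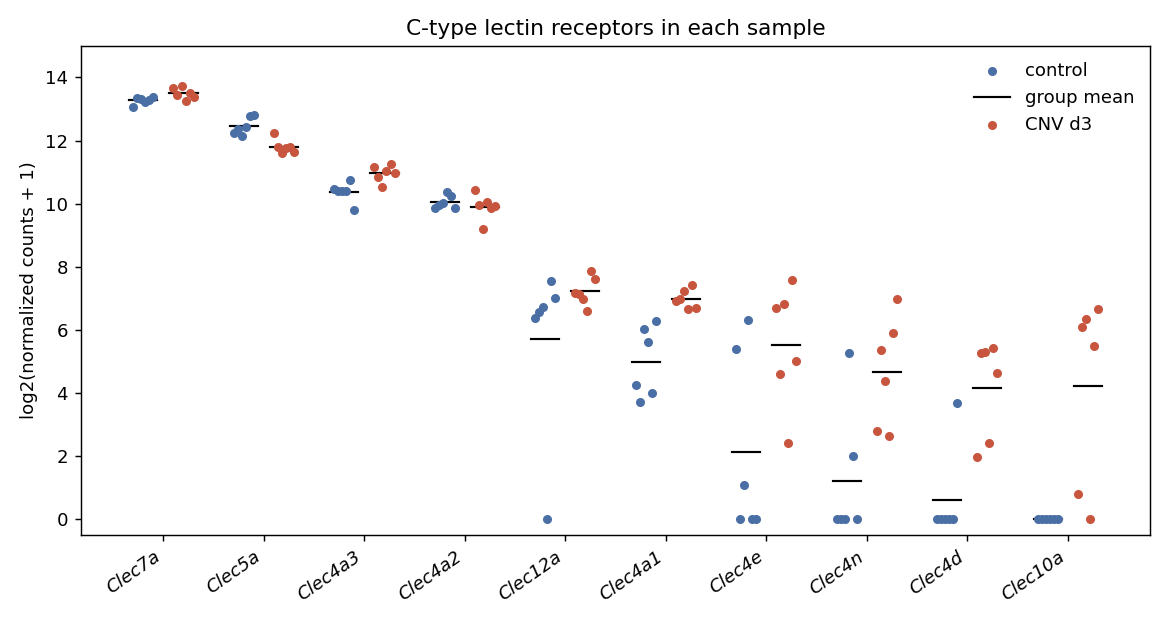
Each point is 1 sample, with log2(normalized counts + 1) on the vertical axis and the receptors in falling order of their level in control (blue, 6 samples) beside CNV d3 (red, 6 samples), and black lines mark the group means. The 4 receptors on the left had reads in every sample and moved by less than 1 log2 unit, while Clec4e, Clec4n, Clec4d and Clec10a had 0 reads in 3, 4, 5 and 6 control samples.

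Clec7a encodes Dectin-1, the receptor for fungal β-glucans with an ITAM-like motif in its own tail, and it was the highest of the family per kb of exon. Its normalized counts ran from 8641 over a median of 10108 to 10778 in control and from 9760 over 11358 to 13542 in CNV d3. The groups overlapped, although CNV d3 replicates 1, 2, 3 and 5 exceeded every control sample. The mean was 9955 ± 781 (SD, n = 6) in control and 11624 ± 1459 in CNV d3, a log2FC of 0.22 (SE 0.09), which did not pass in limma (padj = 0.136).

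Clec5a encodes MDL-1, an activating receptor that signals through DAP12. Its values were between 4493 and 7249 in control, with a median of 5374, and between 3115 and 4893 in CNV d3, with a median of 3507. All CNV d3 samples but replicate 1, which lay among the control samples, were below every control sample. The mean fell from 5717 ± 1146 to 3626 ± 648, and the log2FC of -0.65 (SE 0.14) had a padj of 0.00581 in limma, short of the fold threshold for DEG. The padj stayed under 0.05 when any 1 of the 12 samples was left out and was 0.156 with the 3 CNV d3 samples without Ddx3y reads (log2FC -0.57).

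Clec4a3 and Clec4a2 belong to the DCIR group, whose founding member, DCIR1 (Clec4a2), carries an ITIM. Clec4a3 ran from 888 over a median of 1355 to 1731 in control and from 1471 over 2073 to 2468 in CNV d3. Only control replicate 5, the highest of its group, reached into the range of CNV d3. The mean was 1347 ± 269 in control and 2034 ± 353 in CNV d3, and the log2FC of 0.60 (SE 0.16) had a padj of 0.0209 in limma. Leaving out CNV d3 replicate 1, 4, 5 or 6 brought the padj to between 0.0550 and 0.0635, and it was 0.288 with the 3 CNV d3 samples without Ddx3y reads (log2FC 0.47). Clec4a2 showed no such difference, with 927 to 1314 in control, 589 to 1388 in CNV d3 and a log2FC of -0.14 (SE 0.18, padj = 0.608 in limma). The mean of Clec4a2 was 1072 ± 158 in control and 992 ± 257 in CNV d3.

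Clec4a1, the neighbour of Clec4a3 and also a DCIR family gene, was low in control and rose. Its values were 12.1 to 77.5 in control, with a median of 33.5, and 99.5 to 171 in CNV d3, with a median of 123. Every CNV d3 sample exceeded every control sample, with at least 115 reads each. The mean was 39.3 ± 28.04 in control and 128 ± 27.8 in CNV d3, 3.26-fold higher, and the log2FC of 2.00 (SE 0.49) had a padj of 0.0143 in limma. Clec4a1 remained a DEG when any 1 sample was left out, and with the 3 CNV d3 samples without Ddx3y reads the log2FC was 2.06 with a padj of 0.128.

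Clec12a encodes MICL, an ITIM-bearing receptor known for binding uric acid crystals. It ran from 0 over a median of 98.9 to 187 in control and from 95.2 over 142 to 232 in CNV d3. The value of 0 was that of control replicate 4 alone. The means were 98.9 ± 61.1 and 155 ± 49.96, and the log2FC of 1.53 (SE 0.99) did not pass in limma (padj = 0.385). Without control replicate 4 the log2FC was 0.39.

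Clec4e, Clec4d and Clec4n form the end of the chromosome 6 group and encode Mincle, MCL and Dectin-2, which signal through FcRγ. Mincle binds mycobacterial glycolipid and a nuclear protein of dying cells, MCL pairs with it, and Dectin-2 binds fungal mannans. Each had reads in all 6 CNV d3 samples and few or none in most control samples. Clec4e ran from 0 over a median of 0.563 to 79.2 in control and from 4.33 over 67.5 to 190 in CNV d3. The control samples split into replicates 1 and 4, at 40.8 and 79.2, and the other 4, at 1 read or none. The means were 20.2 ± 33.1 and 77.4 ± 70.5, and the log2FC of 3.39 (SE 1.30) did not pass in limma (padj = 0.109). It passed only without control replicate 4 among the fits that left out 1 sample (padj = 0.0438).

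Clec4n was at 0 in 4 control samples, at 3.01 in replicate 5 and at 37.6 in replicate 4, against 5.19 to 125 in CNV d3 with a median of 29.9. Only control replicate 4 overlapped the range of CNV d3. The log2FC was 3.46 (SE 1.10), with a padj of 0.0519 in limma that lay next to the threshold. It was 0.00938 without control replicate 4, 0.0174 in limma voom on the recovered reads and 0.204 in edgeR on the same reads.

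Clec4d was at 0 in 5 control samples and at 11.9 (6 reads) in control replicate 6, against 2.96 to 42.5 in CNV d3 with a median of 30.9. CNV d3 replicates 1 and 4 lay below that control sample, and the other 4 lay above it. The mean was 1.99 ± 4.86 in control and 24.99 ± 17.7 in CNV d3, and the log2FC of 3.56 (SE 0.92) had a padj of 0.0177 in limma. Clec4d remained a DEG when any 1 sample was left out, but not in edgeR on the recovered reads (log2FC 3.80, padj = 0.0937). With the 3 CNV d3 samples without Ddx3y reads, the log2FC was 3.57 with a padj of 0.121.

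Clec10a encodes MGL1, a receptor for galactose and N-acetylgalactosamine known from dendritic cells and from macrophages of connective tissue. It had 0 reads in all 6 control samples and 348 reads in the CNV d3 samples together. In CNV d3 replicates 1 to 6 the normalized counts were 0.739, 67.7, 80.5, 0, 44.1 and 101. Replicates 1 and 4, with 1 read or none, did not stand apart from control, and the other 4 did. The CNV d3 mean of 48.9 ± 41.8 was at least 8.21-fold higher than 3 reads in the shallowest control sample, and limma gave a padj of 0.0223. The call, more than the fold change, depended on single samples, since Clec10a remained a DEG only without CNV d3 replicate 1 (padj = 0.0137) or 4 (0.00681), and leaving out any of the other 10 samples gave a padj between 0.0519 and 0.0745 at a log2FC between 3.75 and 4.23. On the recovered reads, edgeR gave a padj of 0.00730. With the 3 CNV d3 samples without Ddx3y reads, the log2FC was 4.42 with a padj of 0.0674. Mgl2, which shares sequence with Clec10a and was looked up for that reason after its values were seen, was at 0 in all control samples and between 1.73 and 71.1 in CNV d3, and was an increased DEG (padj = 0.00532 in limma).

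**Figure D2:**
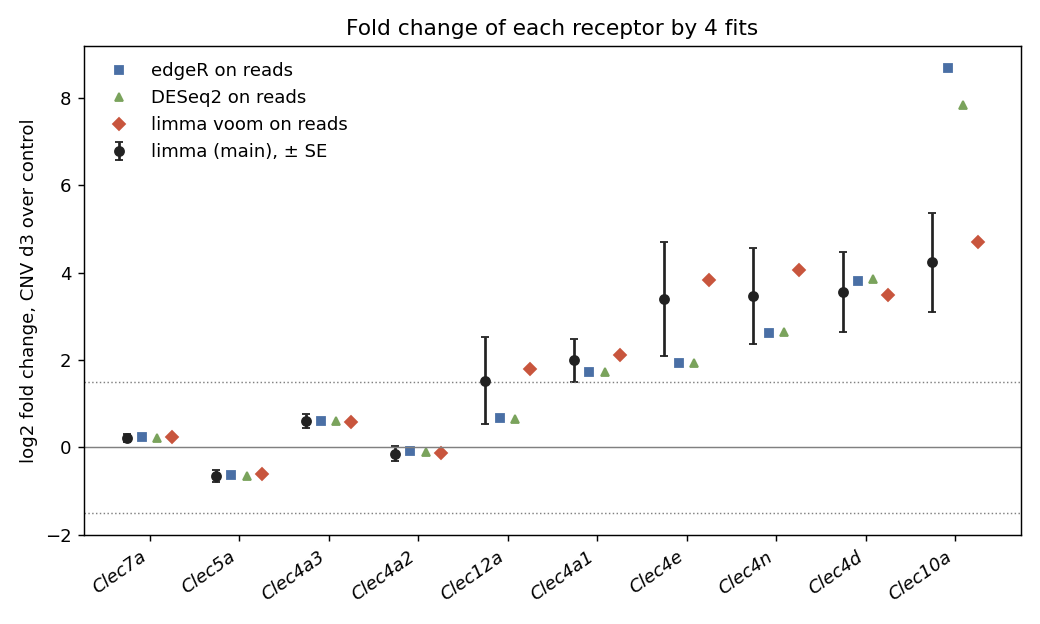
The vertical axis is the log2 fold change of CNV d3 over control (6 samples each) for each receptor, from limma on log2(normalized counts + 1) with its standard error and from edgeR, DESeq2 and voom on the whole reads, and dotted lines mark 1.5 in either direction. The fits lie close together for Clec7a, Clec5a, Clec4a3 and Clec4a2 and spread for the receptors with 0 reads in control samples, up to 8.67 in edgeR and 4.23 in limma for Clec10a, where a fitted value is not a bound.

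The order of the family could be compared per kb of exon. In control, Clec7a came first with 3774 ± 296 normalized counts per kb (56.4% of the sum over the members), then Clec5a with 1489 ± 298 (22.2%), Clec4a3 with 1015 ± 203 (15.2%) and Clec4a2 with 366 ± 54.1 (5.47%). In CNV d3, Clec7a kept the first place with 4406 ± 553 (59.5%), Clec4a3 came second with 1533 ± 266 (20.7%), Clec5a next with 944 ± 169 (12.7%) and Clec4a2 last of these with 339 ± 87.8 (4.57%). Each of these receptors exceeded the next in 6 of 6 samples of its group, and Clec4a2 exceeded Clec4a1 in 6 of 6 in both groups. Below these the order was not settled, since Clec4a1 exceeded Clec12a in 3 of 6 control samples and Clec4n exceeded Clec12a in 2 of 6 CNV d3 samples.

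**Figure D3:**
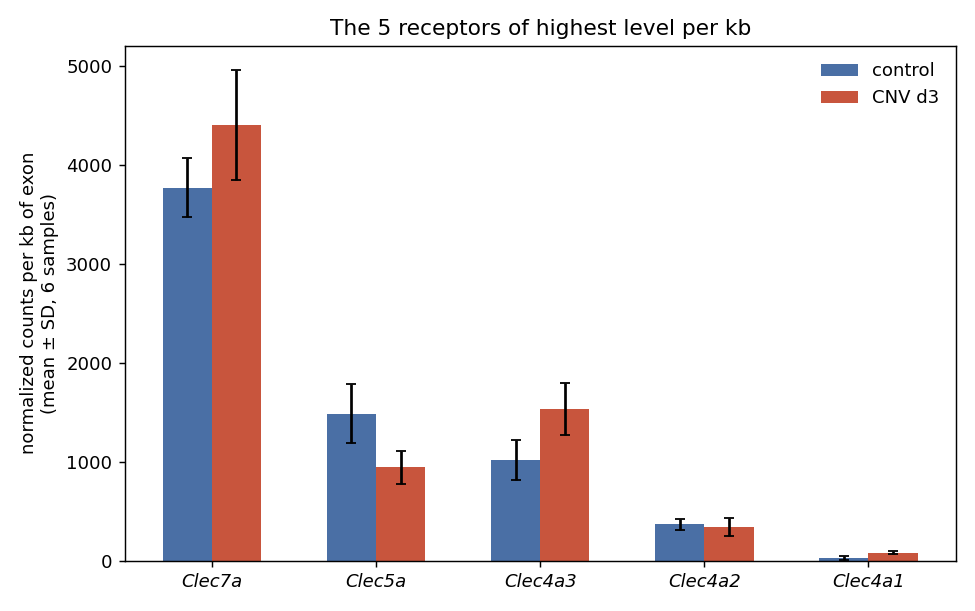
Bars give the mean normalized counts per kb of exon in control (blue) and CNV d3 (red) with the SD over 6 samples, for the receptors with the highest levels. Clec5a stood above Clec4a3 in control and below it in CNV d3, while Clec7a was first in both groups.

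Ratios between other pairs of members within a sample were picked after the values were seen and are given without a test. Clec7a exceeded Clec5a per kb 2.57-fold in control (log2 ratio 1.36 ± 0.26, from 1.05 to 1.74) and 4.69-fold in CNV d3 (2.23 ± 0.24, from 1.96 to 2.66). Clec4a3 exceeded Clec4a2, the next of the members along the chromosome, 2.74-fold in control (1.46 ± 0.26, from 1.08 to 1.73) and 4.60-fold in CNV d3 (2.20 ± 0.26, from 1.86 to 2.54). Neither ratio overlapped between the groups.

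Some markers of other myeloid cells also rose. Of 14 monocyte markers 5 were increased DEG and 0 decreased, and their summed level was 648 to 1804 in control and 1786 to 5719 in CNV d3. Ly6c2, the transcript of the surface marker excluded by the gate, was at 0 in all control samples and had a mean of 12.9 ± 8.26 in CNV d3, and the chemokine receptor Ccr2 rose from 34.2 ± 46.6 to 664 ± 543. Of 12 dendritic cell markers 6 were increased and 0 decreased, with a summed level of 927 to 1774 in control and 2347 to 5932 in CNV d3. The growth factor receptor Flt3 rose from 5.76 ± 6.94 to 159 ± 102 among them. Other genes of this list did not rise. Batf3 had a log2FC of -0.25 (padj = 0.557 in limma) and Clec9a of -0.10 (padj = 0.949). Zbtb46 had means of 169 in control and 136 in CNV d3 (padj = 0.502). Of 8 border macrophage markers measured, 2 were increased (Cbr2 and Folr2), with summed levels of 2454 to 4272 in control and 3125 to 4282 in CNV d3. On the recovered reads, edgeR called 0 of these markers and DESeq2 1 increased and 1 decreased. Of those with the highest means, Stab1 was higher by padj alone (log2FC 0.59, padj = 0.0107 in limma). Ms4a7 had means of 447 in control and 402 in CNV d3 (padj = 0.998 in limma). Mrc1 had means of 350 and 113 (log2FC -1.44, padj = 0.233 in limma). Of 9 neutrophil markers measured, 1 was increased (Mmp9), and Ly6g, Retnlg and Elane were not in the table. Of 10 photoreceptor markers 0 were DEG in limma (1 higher at an unadjusted p under 0.05, 1 increased DEG in edgeR and in DESeq2). Of 4 lymphocyte markers, all with means under 10, 0 were DEG in limma. At an unadjusted p under 0.05, 0 of these were higher in limma and 1 in edgeR. Of 8 Mueller glia markers 2 were increased (Aldh1l1 and Dkk3, with 0 in edgeR), while Slc1a3, among the most abundant, was lower (log2FC -0.67, padj = 0.0208 in limma). The summed level, most of it Glul and Slc1a3, was 6987 to 9839 in control and 5394 to 7744 in CNV d3. The mean log2(normalized counts + 1) over the list went the other way, with 3.79 to 5.73 in control and 6.59 to 7.27 in CNV d3. Of 10 genes of cell division 10 were increased. With the 3 CNV d3 samples without Ddx3y reads, the increased DEG were 1 monocyte, 3 dendritic cell, 0 border macrophage, 0 neutrophil, 0 Mueller glia, 1 lymphocyte and 2 cell division genes. At an unadjusted p under 0.05 in limma 6, 8, 3, 1, 2, 2 and 10 of these lists were higher, in the same order.

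Within CNV d3, replicates 1 and 4 had the lowest monocyte scores (5.65 and 4.71, the mean log2(normalized counts + 1) over the list), where the other 4 were between 6.30 and 6.88. The same 2 samples had the lowest dendritic cell scores (4.90 and 4.84, against 5.85 to 7.47) and the lowest values of Clec10a, Clec4d and Clec4n. Clec4e did not follow this split, with 103 in replicate 1 and 4.33 in replicate 4. Replicates 1 and 4 also had the lowest scores of the cell division list (9.65 and 9.86, against 10.38 to 10.91) and the highest of the microglia list (15.69 and 15.55, against 15.23 to 15.47). Of 20 relations between the members and the monocyte or border macrophage score, each by a two-sided exact permutation test over 6 samples, 0 passed after Benjamini-Hochberg adjustment. The lowest adjusted p was 0.111 (Clec10a with the monocyte score, r = 0.93), a value that pools these clusters of samples. With 6 samples a single relation could pass only near the smallest p the test can give, so 0 passing does not show that relations are absent. The part of monocytes or dendritic cells in the members' levels was not tested. The dendritic cell list shares genes with the family, since it holds Cd209a and Clec9a.

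Among 38 other C-type lectin receptors measured, 10 were increased and 0 decreased, with a median log2FC of 0.97, or 1.58 with genes at 0 in control set at their lower bound and without the 15 genes whose means were at or under the floor in both groups. By padj alone, 10 were higher and 2 lower. Cd72, a B cell and macrophage receptor with an ITIM, was the highest of the list over all samples and rose from 2188 ± 887 to 11187 ± 2086 (log2FC 2.41, padj = 5.15e-06 in limma). Klrk1, which encodes the NKG2D receptor of lymphocytes, was at 0 in all control samples and between 0.866 and 228 in CNV d3, at least 21.7-fold higher on average. Cd209a, a DC-SIGN homologue of dendritic cells, was at 0 in all control samples and between 0.739 and 510 in CNV d3, at least 37.4-fold higher on average. Clec2i, from 4.62 ± 7.27 to 115 ± 86.4, and Clec2l, from 6.43 ± 15.7 to 116 ± 46.0, belong to the family of ligands of NK receptors. The endocytic receptor Mrc2 was lower in CNV d3 (1912 ± 396 to 1042 ± 200, log2FC -0.87, padj = 0.00277 in limma), as was Cd302 (3750 ± 315 to 2709 ± 376, log2FC -0.48, padj = 0.00638), both short of the fold threshold.

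Of 18 adaptors and kinases, 0 were DEG in either direction in limma, and by padj alone 3 were higher (Syk, Vav1 and Pik3cd) and 1 lower (Lyn), with a list median log2FC of 0.11. At an unadjusted p under 0.05, these counts were 6 and 4, and edgeR and DESeq2 gave 0 DEG while voom gave 1 increased. FcRγ (Fcer1g) was at 28078 ± 4272 in control and 26661 ± 1389 in CNV d3 (log2FC -0.06, padj = 0.618), and DAP12 (Tyrobp) at 26806 ± 4113 and 23345 ± 3271 (log2FC -0.20, padj = 0.270). Syk, the kinase that docks on ITAMs, was at 2830 ± 241 in control and 3450 ± 285 in CNV d3 (log2FC 0.29, padj = 0.0466), and its lowest CNV d3 value was above its highest control value. Lyn, the Src kinase that phosphorylates ITAM and ITIM tyrosines, was at 24788 ± 1854 and 20564 ± 280 (log2FC -0.27, padj = 0.00802).

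Of 16 genes of the CARD9 and NF-kappaB arm, 0 were DEG in limma, and by padj alone 1 was higher (Map3k7) and 4 were lower, with a median log2FC of -0.26. At an unadjusted p under 0.05, 1 was higher and 8 were lower, and edgeR, DESeq2 and voom gave 0 DEG for this list and for the phosphatases. Nfkbia, the inhibitor and target of NF-kappaB, was lower (4264 ± 422 to 2346 ± 483, log2FC -0.88, padj = 0.000356), as were Nfkb1, Rela and Nfatc1. Card9 itself was at 497 ± 261 and 381 ± 151 (log2FC -0.28, padj = 0.608). Of 10 phosphatases and ubiquitin ligases that limit signalling, 0 were DEG, and by padj alone Ptpn11 was higher and Ptprj lower (median log2FC 0.17), with 2 higher and 1 lower at an unadjusted p under 0.05. SHIP1 (Inpp5d) was at 20112 ± 867 in control and 18946 ± 1410 in CNV d3 (padj = 0.435), and SHP1 (Ptpn6) at 12764 ± 854 and 11984 ± 761 (padj = 0.454).

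Of 10 cytokine genes measured that are known targets of SYK and CARD9 signalling, 1 was a DEG in limma. At an unadjusted p under 0.05 in limma, 5 were higher and 1 was lower, against 16.3% and 8.9% of all genes. Il6 fell from 227 ± 41.8 to 34.2 ± 24.1 (log2FC -3.07, SE 0.52, padj = 0.00116 in limma), with 172 to 288 in control and 5.85 to 64.4 in CNV d3. By padj alone Il1b (log2FC 1.47, padj = 0.0496) and Tnf (log2FC 1.35, padj = 0.0402) were higher. The chemokine genes Ccl3 (log2FC 0.76, padj = 0.0577) and Ccl4 (log2FC 0.98, padj = 0.123) did not pass. Nor did Il12b (log2FC 3.88, padj = 0.0918), which was at 0 in 5 control samples and in 0 CNV d3 samples. Its mean was 73.8 in control and 58.9 in CNV d3. The list median was 0.86, or 1.16 without the 4 genes whose means were at or under the floor in both groups.

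For the members with a mean of at least 100, genes were ranked by how closely they followed the member among samples of the same group (Pearson r of the residuals from the group means over 12 samples, among 9712 genes, given as a description). Clec7a was followed most closely by Bcl2a1b (r = 0.89), Mrpl39 (0.88) and the microglial gene Fcrls (0.87). For Clec5a these were Il16 (0.88), Rgs1 (0.87) and Zfp748 (0.87), for Clec4a3 Dph6 (0.90) and Proser1 (0.89), and for Clec4a2 Pik3r6 (0.92), Gpr183 (0.90) and Slamf1 (0.89). No member was among the genes closest to another. The values for Clec12a (Plekha8, Zbtb6 and Galnt3, 0.97 to 0.98) leaned on control replicate 4, without which they were 0.77 to 0.83. All of these points share their libraries and depth.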

How the data were processed

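Sorted retinal microglia were profiled by bulk RNA-seq (full-length cDNA amplified by PCR, no molecular identifiers) in 6 control and 6 CNV d3 samples. The labels list 7 samples in 2 parts, all 6 control samples and CNV d3 replicate 4, and each of these is 1 column. The methods describe 2 merged files for each sample, 1 per flow cell. The listing in 2 parts nearly coincides with the groups, so an effect of it and of the laser cannot be told apart. Per the submitters' processing notes and methods, the authors mapped reads with STAR 2.7.2b, counted them per gene with featureCounts 1.6.4 at default settings (Gencode M25, GRCm38.p6) and ran DESeq2 1.22.2. The deposited signal gives, for a gene, its reads over the DESeq2 size factor of the sample. The authors' means, fold changes and p-values in the same table were not used.

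Dividing by the smallest value of a sample gave whole numbers for 100% of values (tolerance 0.0001), which returned the reads, and on these edgeR called 839 increased and 281 decreased DEG. The planned main test was limma 3.58.1 (R 4.3.3) with a variance trend on log2(signal + 1) over all 27299 genes, with no filter. The alternatives were pseudocounts of 0.5 and 5, a filter (10 or more in at least 6 samples), TMM scaling, no trend, edgeR 4.0.16, DESeq2 1.42.0 and limma voom on the reads, a replicate block, and omission of single samples. After the data had been seen, further ones were added: protein-coding genes and members alone, CNV d3 samples without Ddx3y reads, and the dendritic cell and neutrophil lists. All tools were tested on simulated data. Replicates differed by more than counting noise (chi-square per degree of freedom at least 32.49 over 30 pairs).

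The members and gene lists were chosen with earlier results of these data known. Named are all members and, from each list, the DEG of largest fold change and the genes of highest mean, and genes named outside this rule (such as Mgl2, Syk, Card9, Tnf and the genes found by padj alone) were chosen after their values were seen. Exon lengths and positions came from Gencode M21, and start-site regions from RefSeq. Some values are not reported here.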

Additional observations from a re-analysis of the deposited data

Results flagged for a closer look

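In 19 groups of 6 values (the members in control and in CNV d3, without the group where all values were 0), 3 held a sample far from the others by the Dixon test at the 95% level, which chance gives in about 1 in 20 groups of continuous values. Clec4d was at 11.9 normalized counts (6 reads) in control replicate 6 and at 0 in the other control samples, where any single value above 0 would meet the rule, so that rate does not apply to it. Clec4n was at 37.6 in control replicate 4, and the next control sample was at 3.01. With the other 4 control samples at 0, the rate does not hold for Clec4n either. Clec5a was at 4893 in CNV d3 replicate 1, and the next sample was at 3555. Control replicate 4 was also the highest control sample for Clec4e (79.2) and the only one at 0 for Clec12a.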

How the results depend on the processing

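No member changed direction under any alternative that gave a value. The count of 3 increased members was between 2 and 4 in all fits but these: 1 with the filter on low values, which keeps 12753 genes and leaves out the lowest members, and 0 with the 3 CNV d3 samples without Ddx3y reads, a comparison of fewer samples in which 5 rather than 10 other C-type lectin receptors and 1 rather than 5 monocyte markers were increased. Leaving out 1 sample gave 2 to 4. Clec4n also became a DEG with a pseudocount of 0.5 (padj = 0.0402) and among protein-coding genes and members alone (0.0357). The padj of Clec4a3 was 0.0596 without the variance trend. Without a fold threshold, 1 member was lower, as were 2 other C-type lectin receptors. With the threshold, DESeq2 called 1 gene of the whole list of other C-type lectin receptors decreased, against 0 in limma. No fold threshold also gave 3 adaptors and kinases higher and 1 lower, 1 and 4 genes of the CARD9 arm, 1 and 1 phosphatases, and 2 cytokine genes higher. Of the adaptors 1 was increased with the filter and 1 in voom, and of the cytokine genes 1 with the filter, 1 in voom, 1 under the replicate block and 0 to 2 when leaving out 1 sample, with 2 without control replicate 3. Decreased DEG over all genes were 293, against 572 in DESeq2, 489 in voom, 77 among protein-coding genes and members and 166 in CNV d3 samples without Ddx3y reads. Same-numbered samples did not deviate together (r from -0.05 to 0.07 over 9713 genes), so the numbers do not pair the samples. With the replicate block, Clec4a1 (padj = 0.0403), Clec4d (0.0340) and Clec10a (0.0342) stayed DEG. TMM scaling moved the median of all genes by 0.01. Depth limits the receptors with few reads: with 3 reads worth up to 5.96 normalized counts in control, lower levels of Clec10a there were not detectable.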
